A study of Mus musculus with 8 samples.

Results

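The 34 genes described here mark the layers of a stratified squamous epithelium, of which 7 are basal, 16 suprabasal and 11 cornified. They were chosen by gene symbol, matched through the NCBI Gene IDs that name the rows of the deposited tables, and all 34 were found among the 38920 rows of each table. The series sets C57BL/6 mice on a high fat diet (HFD) against control mice (ND), in epithelial cells sorted from the stomach. Total RNA was freed of ribosomal RNA and sequenced without selection for poly(A) tails, in 4 HFD libraries (HFD22, HFD23, HFD26 and HFD27) and 4 ND libraries (ND15.17.18, ND16, ND19 and ND20). Values of a group are given in that library order throughout. The labels name no mutation, transgene or treatment other than the diet, and give no age, time on the diet, batch or sorting marker. Nor do they say whether a library came from 1 mouse. The title ND15.17.18 holds 3 numbers, and no label says whether it was pooled. The p-values below thus cover only the spread among these libraries, which may be technical.

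The mouse stomach joins a glandular part, lined by a simple columnar epithelium, to a forestomach lined by a keratinised stratified squamous epithelium. In the squamous epithelium, basal cells rest on the basement membrane and make the keratins Krt5 and Krt14 under the transcription factor p63 (Trp63). As cells move up they change to other keratins, chiefly Krt4 and Krt13 in the lining of the mouth, oesophagus and forestomach and Krt1 and Krt10 in epidermis, and to other desmosomal proteins. The outermost cells cross-link precursors such as involucrin, loricrin and the small proline-rich (Sprr) proteins into the cornified envelope. Of the members, Dsc2, Perp, Sfn, Ppl and Evpl are known in simple epithelia too and are followed apart from the other 29. Sprr2a1 was left among the 29, although its level, given below, was near those of the simple keratins Krt8 and Krt19.

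Levels are log2(value + 1) after the deposited values, whose antilogs sum to about the same total in every library, were rescaled so that the typical row is level between libraries (the median-ratio scale). In bulk samples, fewer cells of a type and less RNA per cell cannot be told apart. ND15.17.18 stood apart from the other libraries, with 85.7% of its deposited total in its top 20 rows, 16479 rows at 0 and a scaling factor of 0.18, against factors of 0.68 to 1.37 elsewhere. In ND19 the top 20 rows held 59.1%, against 27.8% to 43.1% in the other 6 libraries. Depth, estimated from the worth of 1 read, was 31.4 to 46.0 M reads in HFD and 16.4 to 63.2 M reads in ND. A single read would stand at a level of 0.74 to 0.99 in HFD and at 2.31, 0.87, 2.11 and 0.66 in the ND libraries, so the lowest levels of ND15.17.18 and ND19 rest on the fewest reads. In HFD26, HFD27, ND15.17.18 and ND20 a single read was worth under 1 linear unit (0.80, 0.97, 0.69 and 0.58). The deposited log2 values were floored at 0, so a 0 in these libraries can hide 1 read.

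The label names epithelial cells of the stomach, and the glandular markers were abundant. Krt8, a keratin of simple epithelia, averaged 18930 linear units per kb of exon over the 8 libraries and Krt19 24592, against 506 for Krt5, 325 for Krt14, 230 for Krt13 and 103 for Krt4 on the same scale. The surface mucous gene Gkn1 stood at 273429 and the parietal cell gene Atp4a at 36456 on that scale. Krt7 and Krt20, keratins of simple epithelia with a narrower range, stood at 192 and 222 on that scale. The mean of Krt7 was raised by HFD23, where its log2 level was 12.51, against 8.73 to 9.78 in the other libraries. The squamous keratins Krt5, Krt14, Krt13 and Krt4 were thus measured in every library. Their means were far under those of Krt8 and Krt19 and on either side of those of Krt7 and Krt20. Of 10 keratins of hair shaft and root sheath, tried as a check for skin or fur, Krt27 and Krt31 were at 0 in at least 4 libraries. Others were detected, with about 108 reads of Krt28 in HFD23 and 69 of Krt25 in HFD26. The log2 sum of all 10 was 6.21 to 7.49 in HFD and 4.14 to 7.33 in ND. Of the 9 tested, 7 had a positive HFD minus ND difference, with a median of 0.72, and 0 were called. The log2 sum of the basal members was 11.15 to 12.45 in HFD and 7.90 to 11.58 in ND.

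The upstream sequence of 6 members is shown because they stand for the layers compared below. Krt5 is basal, Krt13 and Krtdap are suprabasal, and Sprr1a, Sprr2a1 and Ivl encode envelope proteins. Each runs 5′ to 3′ along the gene's strand, with 250 bases before the transcript start and 50 after it, from RefSeq on GRCm38.p6. Krt5 is read from chr15:101712856-101713155, minus strand. Krt13 is read from chr11:100121517-100121816, minus strand, and Krtdap from chr7:30787655-30787954, plus strand. Sprr1a is read from chr3:92485832-92486131, minus strand, Sprr2a1 from chr3:92215585-92215884, plus strand, and Ivl from chr3:92573686-92573985, minus strand. Capitals mark the letters TATAAA of a TATA box and TGANTCA, a loose form of an AP-1 site in which N is any letter. The letters GCCNNNGGC of an AP-2 site, also searched, are in none of the 6.
Krt5: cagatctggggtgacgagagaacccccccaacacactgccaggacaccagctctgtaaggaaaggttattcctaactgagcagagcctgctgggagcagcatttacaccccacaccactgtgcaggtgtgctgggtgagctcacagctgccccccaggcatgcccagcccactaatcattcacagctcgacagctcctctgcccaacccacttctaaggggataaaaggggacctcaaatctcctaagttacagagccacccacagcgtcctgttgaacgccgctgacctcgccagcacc
Krt13: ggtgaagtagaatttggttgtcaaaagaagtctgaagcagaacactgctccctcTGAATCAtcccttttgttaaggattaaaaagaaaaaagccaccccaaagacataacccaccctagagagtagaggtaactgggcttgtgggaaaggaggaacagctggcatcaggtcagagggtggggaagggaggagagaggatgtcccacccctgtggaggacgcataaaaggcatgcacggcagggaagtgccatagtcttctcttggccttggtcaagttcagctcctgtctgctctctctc
Krtdap: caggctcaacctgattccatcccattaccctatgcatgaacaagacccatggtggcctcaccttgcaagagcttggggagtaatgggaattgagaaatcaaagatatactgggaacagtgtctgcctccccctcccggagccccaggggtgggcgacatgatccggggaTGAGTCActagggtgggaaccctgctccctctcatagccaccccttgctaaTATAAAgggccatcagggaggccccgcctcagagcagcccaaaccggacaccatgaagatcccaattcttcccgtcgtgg
Sprr1a: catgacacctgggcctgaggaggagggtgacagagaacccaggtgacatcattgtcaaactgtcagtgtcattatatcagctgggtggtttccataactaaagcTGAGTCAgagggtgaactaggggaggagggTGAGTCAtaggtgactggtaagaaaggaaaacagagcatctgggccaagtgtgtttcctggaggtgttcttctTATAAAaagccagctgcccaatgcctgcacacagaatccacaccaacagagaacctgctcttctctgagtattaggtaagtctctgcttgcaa
Sprr2a1: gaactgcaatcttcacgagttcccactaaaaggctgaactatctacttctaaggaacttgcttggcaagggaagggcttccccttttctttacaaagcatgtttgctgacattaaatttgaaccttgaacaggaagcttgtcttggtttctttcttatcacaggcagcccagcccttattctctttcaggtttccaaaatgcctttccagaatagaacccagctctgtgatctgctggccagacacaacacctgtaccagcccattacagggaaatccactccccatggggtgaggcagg
Ivl: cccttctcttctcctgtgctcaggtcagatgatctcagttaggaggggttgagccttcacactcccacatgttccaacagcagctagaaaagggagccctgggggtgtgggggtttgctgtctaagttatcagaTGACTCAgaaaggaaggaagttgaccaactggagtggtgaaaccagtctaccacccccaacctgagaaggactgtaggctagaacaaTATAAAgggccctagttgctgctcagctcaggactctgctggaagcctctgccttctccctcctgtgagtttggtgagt

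AP-1 is a transcription factor known, in human keratinocytes, for driving involucrin and other genes of late squamous differentiation. Sprr1a held TGAGTCA at 146 and at 116 bases before the start and TATAAA at 43. In Ivl, TGACTCA began 116 bases before the start and TATAAA 29. Krtdap had TGAGTCA at 81 and TATAAA at 30, and Krt13 had TGAATCA at 196. The Krt13 match has A as its middle letter, where those of Sprr1a, Ivl and Krtdap have G or C. In Krt5 and Sprr2a1 the searched letters did not occur in the window. The RefSeq table listed a promoter for 17 members, of which 12 began within 100 bases of the gene's outer end and were searched on both strands, and no matches overlapped. TATAAA was in 6 of the 12 (50%), against 15.16% of 22802 promoters of the same length chosen the same way. TGANTCA was in 6 (50%), against 8.25%, and GCCNNNGGC in 1 (8.33%; Cnfn), against 15.4%. By layer, 5 of 7 cornified members and 1 of 4 suprabasal members held TATAAA, and 4 of 7 and 2 of 4 held TGANTCA. Lor and Sprr1b held both motifs as well, and Sprr3 TATAAA. A match is a description of letters and not a shown binding site.

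The basal genes were measured in all 7 cases, and each had a positive HFD minus ND difference, with a median of 1.93 and a range of 0.33 to 2.13. Without ND15.17.18 the median was 1.001. None passed the test. The ND libraries did not act as one group: in ND15.17.18 and ND16 the basal keratins were low, while in ND19 and ND20 they lay within or near the HFD range. The layer's median level was 6.99, 7.53, 8.22 and 7.97 in the HFD libraries, against 4.62, 5.45, 7.77 and 7.24 in the ND libraries. Over all 27401 rows tested the median difference was 0.12, and 59.9% of the differences were positive.

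Krt5 (chr15:101707069-101712905), the basal type II keratin, had levels of 10.17, 9.93, 11.36 and 10.36 in HFD libraries, against 5.65, 6.95, 10.57 and 10.14 in ND libraries. These levels correspond to about 1177, 1009, 3916 and 1557 reads in HFD libraries and 12.5, 147, 456 and 1935 in ND libraries. The groups overlapped through ND19 and ND20, which stood among the HFD libraries. Krt5 averaged 10.46 ± 0.63 in HFD and 8.33 ± 2.41 in ND (SD, n = 4 each), a difference of 2.13 ± 1.12 (SE; limma adjusted p = 0.541). Without ND15.17.18 the difference was 1.21.

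Krt14 (chr11:100203162-100207510), the type I partner of Krt5, had levels of 8.69, 9.34, 10.43 and 9.30 in HFD libraries, against 4.37, 6.39, 9.75 and 9.09 in ND libraries. Its low ND libraries were the same ones as for Krt5, and the difference was 2.04 ± 1.17 (SE; limma adjusted p = 0.571), or 1.001 without ND15.17.18. Krt15 (chr11:100131759-100135949), a type I keratin of basal cells, had levels of 9.12, 7.53, 9.84 and 8.78 in HFD libraries, against 6.45, 4.91, 8.03 and 8.14 in ND libraries. Here ND16 was lowest, HFD23 lay below ND19 and ND20, and the difference was 1.94 ± 0.78 (SE; limma adjusted p = 0.445). Without ND16 it was 1.28.

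Krt17, a keratin of basal and injured epithelium, differed by 1.81 ± 0.92 (SE), with 3.15 in ND15.17.18, which is about 2 reads, and 5.45 to 7.77 in the other ND libraries. Without ND15.17.18 its difference was 0.86. Desmoglein 3 (Dsg3), the adhesive cadherin of basal desmosomes, differed by 1.93 ± 0.75 (SE), with levels of 5.55 to 7.51 in HFD and 2.64 to 5.63 in ND. Trp63 differed by 1.01 ± 0.60 (SE), with levels of 5.11 to 7.42 in HFD and 4.44 to 6.26 in ND, and by 0.66 without HFD26. Desmocollin 3 (Dsc3), the partner cadherin of Dsg3, had the smallest basal difference, 0.33 ± 0.45 (SE), and its levels were 5.44 to 7.10 in HFD and 5.29 to 6.75 in ND. Its difference was 0.018 without ND15.17.18 and 0.68 without HFD23. None of these 4 was called, with limma adjusted p-values of 0.411 for Dsg3 to 0.799 for Dsc3.

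**Figure D1:**
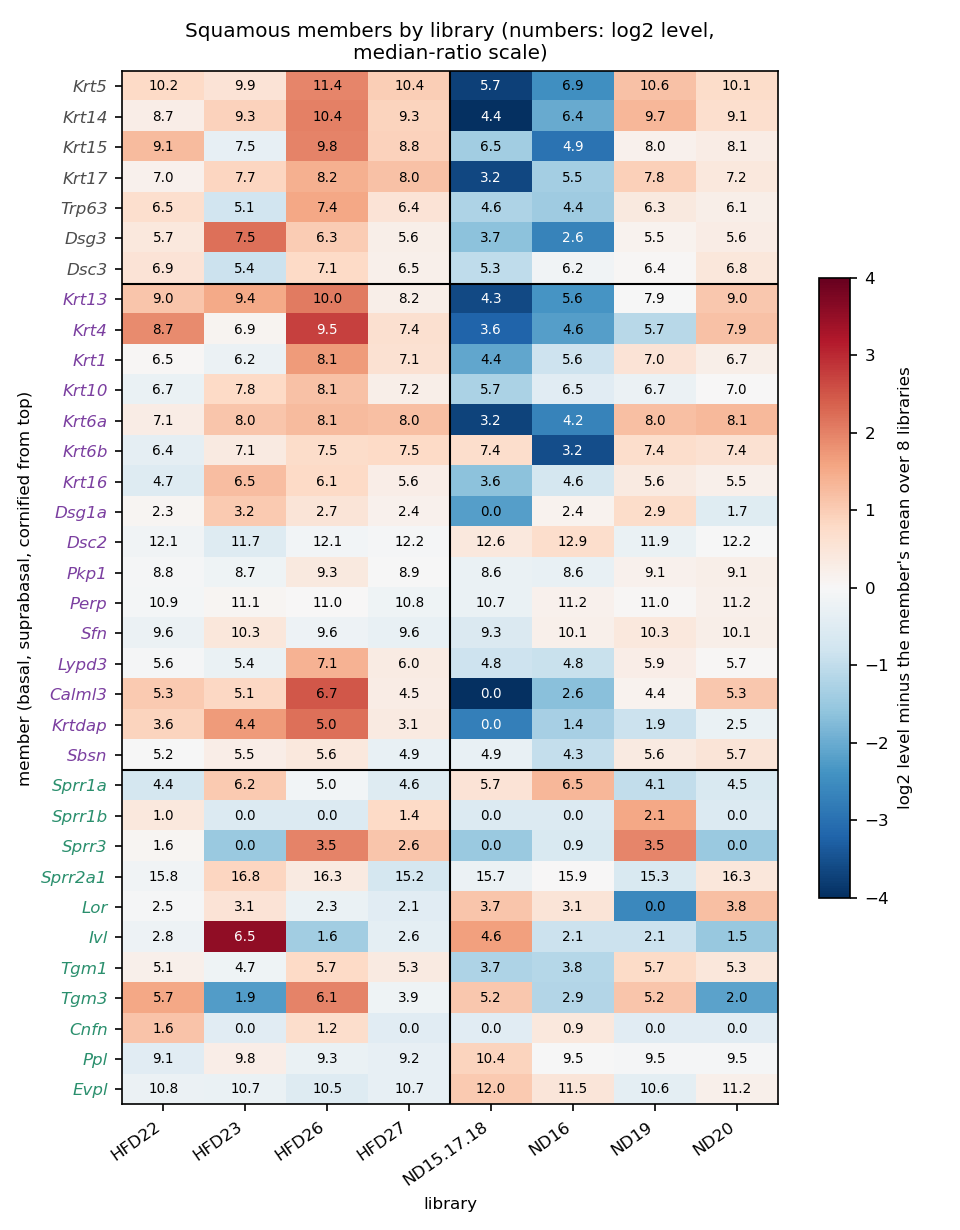
Log2 level of each of the 34 members (rows; basal, suprabasal and cornified from top) in the 4 HFD and the 4 ND libraries (columns), on the median-ratio scale. Numbers are levels and colours are the level minus the member's mean over the 8 libraries, so the blue block in ND15.17.18 and ND16 marks the keratins that are low there, such as Krt5 at 5.65 and 6.95.

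All 16 suprabasal genes were tested. Differences were positive for 13 and negative for 3, with a median of 0.90 (0.52 without ND15.17.18) and a range of -0.42 to 2.69, and again none passed the test on the median-ratio scale. The 3 negative ones were Dsc2, Perp and Sfn, which are among the members also known in simple epithelia. All 13 others were positive, with a median of 0.98. The layer's median level was 6.60, 6.99, 8.12 and 7.31 in HFD libraries, against 4.61, 4.67, 6.86 and 7.16 in ND libraries.

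Krt4 (chr15:101918535-101924735) is the type II keratin that replaces Krt5 above the basal layer of internal squamous linings. Its levels were 8.67, 6.88, 9.52 and 7.42 in HFD libraries, against 3.57, 4.57, 5.66 and 7.95 in ND libraries. ND20 lay above HFD23 and HFD27, and the other ND libraries lay below every HFD library. About 415, 121, 1096 and 202 reads stood behind these levels in HFD libraries, and 2.75, 27.3, 14.9 and 421 in ND libraries. The difference was 2.69 ± 0.96 (SE; limma adjusted p = 0.382).

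Krt13 (chr11:100117327-100121566), the type I partner of Krt4, had levels of 9.03, 9.45, 10.003 and 8.16 in HFD libraries, against 4.33, 5.56, 7.90 and 9.02 in ND libraries. Only ND20 lay above the lowest HFD library, HFD27. Its difference was 2.46 ± 1.01 (SE; limma adjusted p = 0.456), or 1.64 without ND15.17.18. On the deposited scale, which leaves the typical row 0.90 higher in HFD, Krt4 differed by 3.43 ± 0.78 (SE; limma adjusted p = 0.0339) and Krt13 by 3.24 ± 0.75 (SE; limma adjusted p = 0.0387), and both passed. The SDs there were 1.18 in HFD and 2.62 in ND for Krt4, and 0.82 and 2.94 for Krt13. Limma's SE was nearly the same there for Perp, 0.74, with SDs of 0.18 and 1.51. The SEs and p-values of that scale thus follow a spread shared between rows more than each gene's own. Both calls were lost on that scale when HFD22, HFD23, HFD26, HFD27, ND15.17.18 or ND19 was left out, each in turn. Without ND16 the same 2 genes were called, and without ND20 Krt5 joined them.

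Krtdap (keratinocyte differentiation associated protein), a small secreted protein, was the single member whose groups did not overlap, and it was singled out after its values were seen. Its levels were 3.63, 4.43, 4.95 and 3.11 in HFD libraries, against 0, 1.41, 1.87 and 2.48 in ND libraries. The reads behind them were few, about 11.6, 21.3, 44.7 and 9.02 in HFD libraries and 0, 2, 0.797 and 7.85 in ND libraries. The 0 of ND15.17.18 can hide 1 read, which would stand at 2.31 there. The difference was 2.59 ± 0.81 (SE; limma adjusted p = 0.314). Over all tested rows, 4.72% had every HFD library above every ND library, and 1 of 32 tested members did. Every HFD library lay below every ND library in 3.12% of tested rows and in 0 members.

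Among the other keratins of this layer, Krt6a, Krt6b and Krt16 are known for their induction in injured epidermis. Krt6a had levels of 7.15, 7.96, 8.12 and 8.04 in HFD libraries, against 3.15, 4.17, 8.05 and 8.13 in ND libraries, so ND19 and ND20 matched HFD while the other 2 ND libraries were low. Krt6b, its close copy, had 6.38, 7.10, 7.49 and 7.54 in HFD libraries, against 7.45, 3.21, 7.45 and 7.36 in ND libraries, so that ND16 alone was low. The differences were 1.94 ± 1.15 and 0.76 ± 0.93 (SE), that of Krt6a was 1.004 without ND15.17.18, and that of Krt6b was -0.29 without ND16. The longest transcripts of the pair share 91.3% of bases over their aligned length, so how reads were divided between them affects both rows. Krt6a minus Krt6b was 0.50 to 0.96 in 7 libraries and -4.30 in ND15.17.18, where Krt6a rested on about 2 reads and Krt6b on about 44.

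Krt1 and Krt10, the suprabasal keratin pair of epidermis, differed by 1.06 ± 0.62 and 0.98 ± 0.38 (SE). Krt10 levels were 6.70 to 8.13 in HFD and 5.68 to 6.96 in ND, with ND19 and ND20 just inside the HFD range. Krt16 differed by 0.89 ± 0.58 (SE). Calml3, a calmodulin-like protein of differentiating keratinocytes, was at 0 in ND15.17.18, at 2.58 to 5.32 in the other ND libraries and at 4.54 to 6.71 in HFD, a difference of 2.33 ± 1.11 (SE). Lypd3 differed by 0.70 ± 0.48, the suprabasal cadherin Dsg1a by 0.91 ± 0.79, suprabasin (Sbsn) by 0.19 ± 0.46 and the desmosomal plaque protein Pkp1 by 0.08 ± 0.18 (SE). Dsg1a rested on at most 8.81 reads in any library. Without ND15.17.18 the differences were 0.52 for Krt1, 0.47 for Krt16, 1.29 for Calml3 and 0.30 for Dsg1a, and without HFD26 they were 0.67 for Krt1 and 0.35 for Lypd3. None of these 8 genes was called, nor Krt6a or Krt6b, with limma adjusted p-values of 0.412 to 0.894. Pkp1 was -0.029 without HFD26, -0.023 without ND15.17.18 and -0.011 without ND16, and Sbsn was -0.10 without ND16.

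The 3 suprabasal members with the highest levels were those that simple epithelia also use. Dsc2, the desmocollin found in most epithelia, had levels of 12.07, 11.68, 12.08 and 12.15 in HFD libraries, against 12.62, 12.91, 11.93 and 12.21 in ND libraries. It was highest in ND16 and ND15.17.18, the libraries in which Krt5 was lowest. Perp, a membrane protein of desmosomes and a p63 target, had 10.92, 11.08, 11.01 and 10.83 in HFD libraries, against 10.73, 11.16, 11.04 and 11.19 in ND libraries, a range of 0.46 over all 8. Stratifin (Sfn), the epithelial 14-3-3 sigma protein, had 9.62, 10.30, 9.64 and 9.56 in HFD libraries, against 9.26, 10.06, 10.26 and 10.10 in ND libraries. The differences were -0.42 ± 0.21 for Dsc2, -0.07 ± 0.13 for Perp and -0.14 ± 0.24 for Sfn (SE; limma adjusted p = 0.510, 0.859 and 0.847), and on the deposited scale they were 0.44, 0.79 and 0.72, against 0.90 for the median row there.

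**Figure D2:**
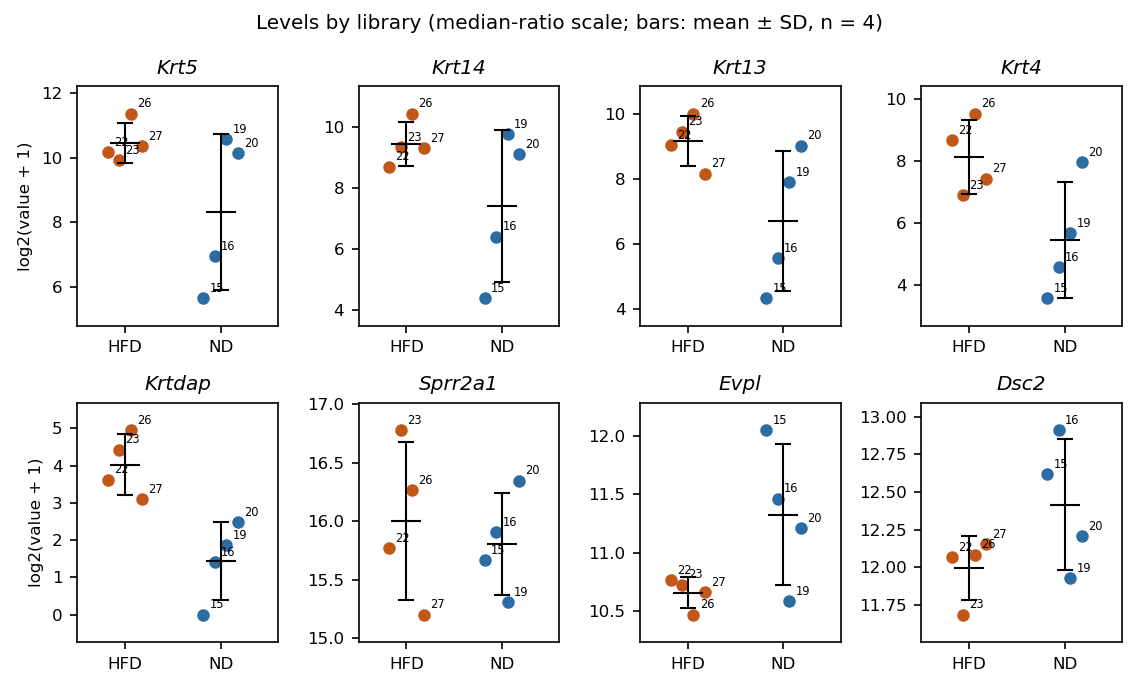
Log2 level (vertical axis, median-ratio scale) of 8 members in the 4 HFD libraries, left, and the 4 ND libraries, right; numbers are library names (15 is ND15.17.18) and bars are mean ± SD. The lowest ND libraries of Krt5, Krt14, Krt13 and Krt4 are ND15.17.18 and ND16, while Evpl is highest there, at 12.05 and 11.46. For Krt13 and Krt4, ND19 also lies below every HFD library, at 7.90 and 5.66.

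Of the 11 cornified genes, 9 passed the filter on low values. Their differences were positive in 5 and negative in 4, with a median of 0.19 and a range of -0.67 to 0.83, and none passed the test. The layer's median level was 5.11, 6.18, 5.71 and 4.62 in HFD libraries, against 5.19, 3.75, 5.20 and 4.53 in ND libraries, so ND15.17.18 was not low here. Leaving out 1 library at a time moved the layer's median between -0.25, without HFD23, and 0.46.

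Sprr2a1 (chr3:92215835-92222491), a small proline-rich envelope precursor, had the highest level of all members. Its levels were 15.77, 16.78, 16.26 and 15.20 in HFD libraries, against 15.67, 15.91, 15.31 and 16.35 in ND libraries, with both groups spread over the same range. The difference was 0.19 ± 0.34 (SE; limma adjusted p = 0.850), and -0.060 without HFD23. This 0.19 is also the cornified median, which thus rests on Sprr2a1. Whether its reads came from squamous cells was not tested. Per kb of exon its mean linear value was 21722, between those of Krt8 and Krt19, whereas the other Sprr members were far lower, with 50.1 for Sprr1a, 2.85 for Sprr3 and 0.886 for Sprr1b. Its transcript shares 99.9% of bases with that of Sprr2a2 over 2867 aligned positions. The 2 rows differed by at most 0.0156 in any library, so reads of these genes cannot be assigned to one of them, and the value stands for both.

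Periplakin (Ppl) and envoplakin (Evpl) are plakins that tie keratin to the cell membrane and to the envelope. Evpl had levels of 10.77, 10.73, 10.47 and 10.66 in HFD libraries, against 12.05, 11.46, 10.59 and 11.21 in ND libraries. ND15.17.18, ND16 and ND20 lay above every HFD library and ND19 lay inside their range. The difference of -0.67 ± 0.26 (SE; limma adjusted p = 0.415) was the one negative member difference with an unadjusted p under 0.05. Ppl had 9.05, 9.78, 9.26 and 9.19 in HFD libraries, against 10.40, 9.51, 9.46 and 9.46 in ND libraries, a difference of -0.38 ± 0.24 (SE; limma adjusted p = 0.596), or -0.18 without ND15.17.18. On the deposited scale Evpl differed by 0.19 and Ppl by 0.47, so the sign of both depends on the scaling.

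The late envelope genes were at a few reads or at 0. Loricrin (Lor), the main envelope protein of epidermis, had about 4.84, 8, 6 and 4 reads in HFD libraries, against 3, 9, 0 and 22 in ND libraries. Sprr3 was at 0 in HFD23, ND15.17.18 and ND20 and at most at about 15 reads elsewhere. Sprr1b had levels of 0.99, 0, 0 and 1.37 in HFD libraries, against 0, 0, 2.11 and 0 in ND libraries. Cornifelin (Cnfn) had 1.59, 0, 1.16 and 0 in HFD libraries, against 0, 0.87, 0 and 0 in ND libraries. No nonzero value of Sprr1b or Cnfn exceeded about 2.04 reads, and neither gene was tested.

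The other envelope genes varied from library to library in both groups. Sprr1a was highest in ND16, at 6.45, and HFD23, at 6.18, with 4.14 to 5.69 in the other 6 libraries, a difference of -0.14 ± 0.63 (SE). Involucrin (Ivl) reached 6.54 in HFD23, about 95.4 reads, with 1.59 to 2.78 in the other HFD libraries and 1.46 to 4.62 in ND, a difference of 0.80 ± 1.19 (SE) that became -0.25 without HFD23. Tgm1 and Tgm3 are transglutaminases, the enzymes that cross-link the envelope. Tgm1 had 4.72 to 5.71 in HFD and 3.68, 3.75, 5.65 and 5.34 in ND libraries, so it was low in the same 2 ND libraries as Krt5, and its difference was 0.59 ± 0.59 (SE), or 0.26 without ND15.17.18 and 0.30 without ND16. Tgm3 ranged over 1.87 to 6.08 in HFD and 1.97 to 5.20 in ND, a difference of 0.56 ± 1.11 (SE). Sprr3 differed by 0.83 ± 1.03 and Lor by -0.11 ± 0.95 (SE). Limma adjusted p-values of these 6 genes ran from 0.723 for Tgm1 to 0.972 for Lor, and the signs of Sprr1a, Lor and Tgm3 turned in at least 1 setting that left out a library.

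**Figure D3:**
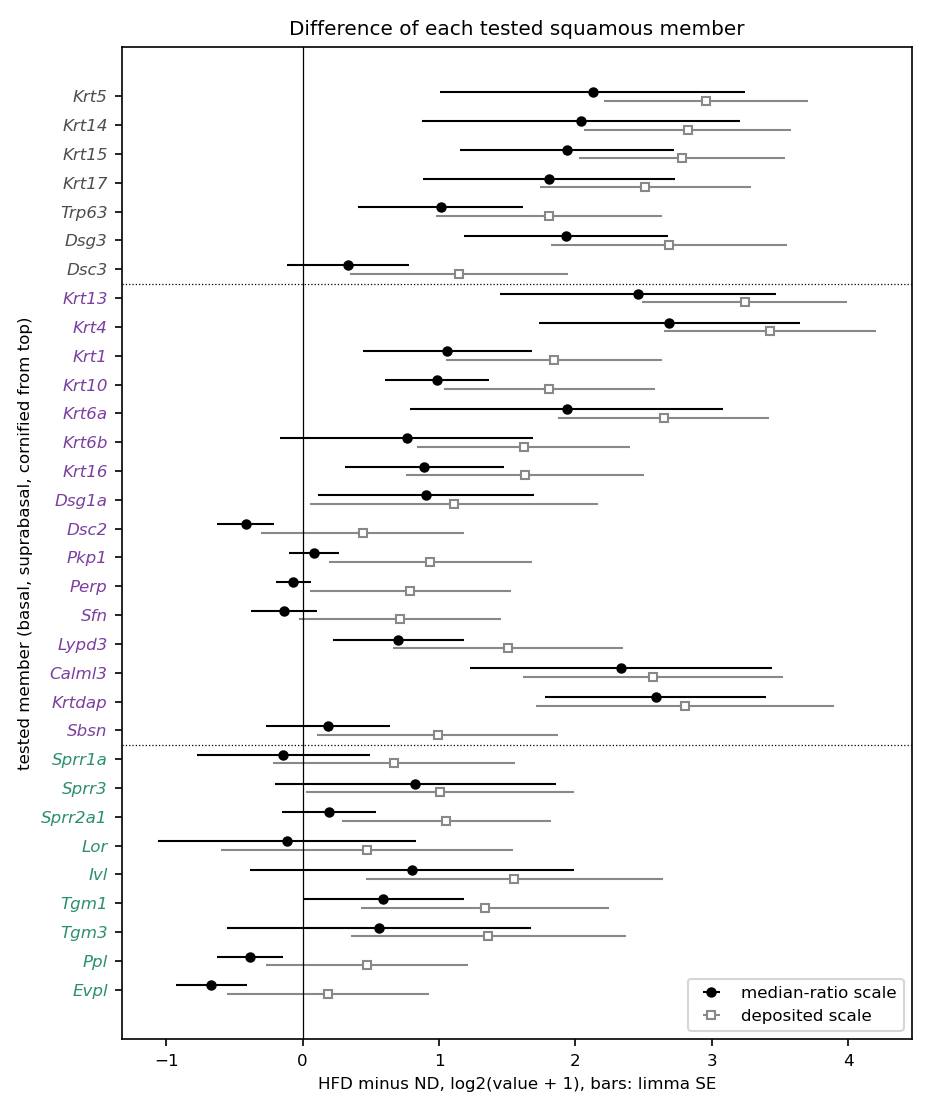
HFD minus ND difference of the 32 tested members (horizontal axis, log2(value + 1); bars are limma SE) on the median-ratio scale (filled) and the deposited scale (open). Basal and suprabasal keratins lie to the right of 0 on both scales, while Dsc2, Perp, Sfn, Ppl and Evpl lie left of 0 on the first and right of it on the second.

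On the median-ratio scale 0 of the 32 tested members were called, and 0.0109% of all tested rows were (3 of 27401). Before adjustment, 6 members were higher in HFD with p under 0.05 (Krt15, Dsg3, Krt13, Krt4, Krt10 and Krtdap) and 1 was lower (Evpl). Among all rows 6.43% were higher and 4.09% lower at that level. On the deposited scale 2 members were called, Krt4 and Krt13, against 0.0584% of all rows (16 rows). There 14 members were higher before adjustment, against 9.25% of rows, and 3 (Krt5, Dsg3 and Krtdap) had every HFD library above every ND library, against 7.82% of rows. All 32 member differences were positive on the deposited scale, where 89.9% of all rows were. Limma's adjusted p for Krt5 was 0.0629 there, at a difference of 2.96 ± 0.75 (SE). The SDs of Krt5 on that scale were 0.66 in HFD and 3.21 in ND.

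The spread among ND libraries was wider in the squamous genes than in the typical row. The median range over the 4 ND libraries was 3.23 for basal, 2.24 for suprabasal and 2.31 for cornified members, against 1.40 for all tested rows. In HFD the median range was 1.74, 1.29 and 1.58 for the 3 layers in that order, against 0.94 for all rows. The wide ND range was not particular to the members. It was 3.11 for other stratified keratins, 2.94 for hair keratins, 2.57 for endothelial and 2.24 for smooth muscle markers. For the members also known in simple epithelia it was 0.98. Over the 27 tested members outside the group shared with simple epithelia, HFD26 held the highest level of 17, HFD23 of 5 and ND20 of 3. The lowest level, ties at 0 included, was in ND15.17.18 for 15 of them and in ND16 for 7. Without HFD23 and ND15.17.18 together, the layer medians were 1.17 for basal, 0.67 for suprabasal and 0.036 for cornified members, against 1.93, 0.90 and 0.19 with all libraries.

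**Figure D4:**
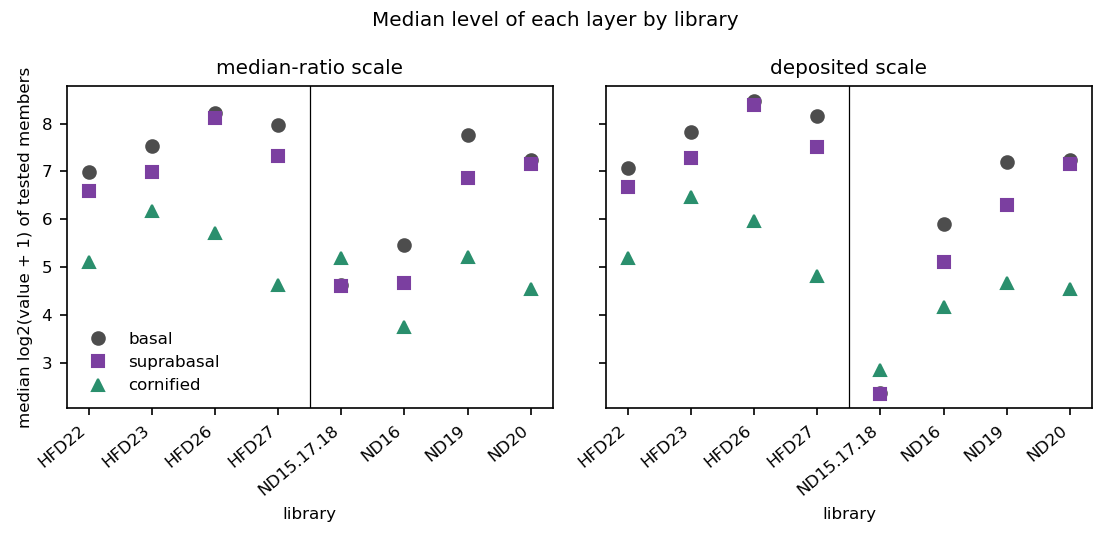
Median log2 level of the tested members of each layer (vertical axis) in the 4 HFD and 4 ND libraries, on the median-ratio scale (left panel) and the deposited scale (right panel). On the left, basal and suprabasal medians of ND15.17.18 and ND16 are 4.61 to 5.45 and those of the other 6 libraries 6.60 to 8.22, while the cornified medians overlap.

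The members lie partly in gene clusters. The type I keratins Krt10, Krt13, Krt14, Krt15, Krt16 and Krt17 are all on chromosome 11 and had a median difference of 1.87, with all 6 positive. The type II keratins Krt1, Krt4, Krt5, Krt6a and Krt6b are on chromosome 15 and had a median of 1.94, with all 5 positive. Envelope genes of chromosome 3 (Sprr1a, Sprr1b, Sprr2a1, Sprr3, Lor and Ivl) had a median of 0.19, with 3 of 5 tested positive.

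Differences between 2 genes within a library depend on the scaling only through the added 1, which matters at the low levels of ND15.17.18, where Krt4 minus Krt5 was -2.09 on the median-ratio scale and -1.73 on the deposited one. In all, 6 such pairs were compared by exact two-sided permutation tests over the 70 divisions of the libraries, for which the smallest possible p is 0.0286. A single pair adjusted over the 6 cannot go below 0.171, so these tests could not pass the threshold for 1 pair alone. Krt14 minus Krt5 was -1.02 ± 0.37 in HFD and -0.93 ± 0.31 in ND (SD, n = 4 each; exact p = 0.714, adjusted over the 6 pairs 0.714). It varied by only 0.92 over the 8 libraries, although Krt5 minus Krt8 varied by 5.84. Krt13 minus Krt5 was -1.30 ± 0.71 in HFD and -1.63 ± 0.70 in ND (SD, n = 4 each; exact p = 0.514, adjusted 0.714). Krt4 minus Krt5 was -2.33 ± 0.78 in HFD and -2.89 ± 1.35 in ND (SD, n = 4 each; exact p = 0.600, adjusted 0.714). Without ND19, in which Krt4 minus Krt5 was -4.90, the HFD minus ND differences of these 2 pairs were -0.017 and -0.11, against 0.33 and 0.56 with it.

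Set against the simple keratin Krt8, Krt13 and Krt5 were each lower in ND on average. Krt13 minus Krt8 was -5.85, -6.00, -5.10 and -6.61 in HFD libraries, against -10.91, -9.77, -6.93 and -6.57 in ND libraries. Of these, ND20 alone lay inside the HFD range, and the difference was 2.65 (exact p = 0.0571, adjusted 0.343). Krt5 minus Krt8 was -4.71, -5.52, -3.75 and -4.41 in HFD libraries, against -9.59, -8.38, -4.26 and -5.45 in ND libraries, a difference of 2.32 (exact p = 0.200, adjusted 0.600). ND19 and ND20 lay inside the HFD range and the other 2 ND libraries far below it. Krt4 minus Krt13 was -1.03 ± 1.03 in HFD and -1.27 ± 0.66 in ND (SD, n = 4 each; exact p = 0.571, adjusted 0.714). Without ND15.17.18 the differences were 1.86 for Krt13 minus Krt8 and 1.43 for Krt5 minus Krt8.

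**Figure D5:**
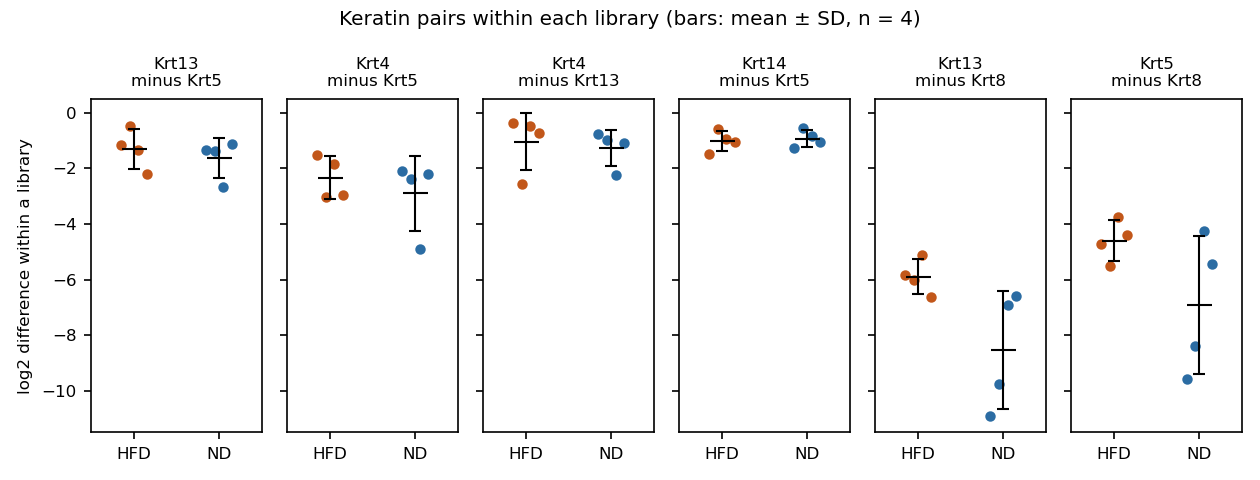
Log2 difference between 2 keratins within each library (vertical axis) for 6 pairs, HFD left and ND right in each panel; points are libraries and bars are mean ± SD (n = 4). Krt14 minus Krt5 stays within a range of 0.92 over all libraries, while Krt13 minus Krt8 and Krt5 minus Krt8 fall to -10.91 and -9.59 in ND15.17.18.

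Other genes of squamous epithelium were followed in 5 further lists, and none was called on the median-ratio scale. Of 7 hemidesmosome and matrix attachment genes 2 were positive, with a median of -0.18. The integrin Itgb4 stood at 12.86 ± 0.09 in HFD and 13.21 ± 0.29 in ND, and the linker Dst at 12.12 ± 0.12 in HFD and 12.59 ± 0.28 in ND (SD, n = 4 each). Itgb4 and Dst of these 7 genes and Krt80 of 10 other keratins had every HFD library below every ND library. Over all tested rows 3.12% did. Gjb2 and Dmkn of 16 surface genes and Tgm5 of 22 tested envelope genes had every HFD library above every ND library. Over all tested rows 4.72% did. Gjb2, Dmkn and Tgm5 differed by 1.90, 1.33 and 1.80. Tgm5 rested on at most about 9 reads and was at 0 in ND15.17.18 and ND20. Of 11 regulators 6 were positive, with a median of 0.11, and Klf5, a zinc finger factor, differed by -0.15 ± 0.13 (SE). Of 10 other keratins of stratified epithelia 3 were positive, with a median of -0.18, and Krt23 and Krt80 differed by -0.08 ± 0.11 and -0.69 ± 0.21 (SE). Of 33 other envelope genes 22 were tested and 12 were positive, with a median of 0.25. Sprr2a2 differed by 0.21 ± 0.34 and Sprr2a3, whose transcript shares 98.9% of bases with that of Sprr2a1, by 0.64 ± 0.49 (SE).

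Of 16 squamous surface genes 13 were positive, with a median of 0.37. Annexin Anxa8 alone was called when the deposited scale was used, with a difference of 3.35 ± 0.79 (SE; limma adjusted p = 0.0420). Its SDs on that scale were 1.54 in HFD and 1.79 in ND. It differed by 2.55 ± 0.78 (SE; limma adjusted p = 0.306) on the median-ratio scale. Its levels were 7.36, 9.96, 7.30 and 6.57 in HFD libraries, against 4.80, 4.43, 4.91 and 6.86 in ND libraries, so ND20 again lay inside the HFD range. Emp1 and the water channel Aqp3 had the highest levels of that list and differed by 0.12 ± 0.15 and -0.29 ± 0.29 (SE). The signs in these lists depend on the scaling, since on the deposited scale all tested attachment genes, regulators, other keratins and surface genes were positive, Itgb4 at 0.50 and Dst at 0.39 among them, and 15 of the 22 envelope genes.

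Markers of smooth muscle had differences of the same sign as the squamous keratins. All 6 (Acta2, Actg2, Cnn1, Myh11, Tagln and Des) were measured in every library, and the log2 sum of their linear values was 11.57 to 12.24 in HFD and 8.93 to 10.98 in ND. Their median difference was 1.95, all 6 had every HFD library above every ND library and an unadjusted p under 0.05, and 0 were called on the median-ratio scale. Over all tested rows 4.72% had every HFD library above every ND library, and 6.43% were higher in HFD with an unadjusted limma p under 0.05. Desmin (Des), the muscle intermediate filament protein, was called on the deposited scale. Within ND the sums were 10.23, 8.93, 10.98 and 10.34 in library order, lowest in ND16. Over the tested squamous members outside the group shared with simple epithelia, the lowest level of any library was in ND15.17.18 for 15 and in ND16 for 7. Sums of simple keratins were 16.35 to 16.93 in HFD and 16.33 to 16.97 in ND, with a median difference of 0.02 over 5 genes. Glandular markers differed among themselves. The chief cell genes Cblif and Pgc differed by 1.46 ± 0.33 and 0.67 ± 0.22, the mucin Muc5ac by -1.61 ± 0.35 and the parietal cell genes Atp4a and Atp4b by -0.18 ± 0.22 and -0.17 ± 0.26 (SE), and none was called. Every HFD library lay above every ND library for Cblif and below every ND library for Muc5ac, as in 4.72% and 3.12% of all tested rows. Chief cell sums were 21.21 to 21.60 in HFD and 20.23 to 21.34 in ND, surface mucous sums 18.93 to 19.70 in HFD and 18.98 to 20.10 in ND, and parietal sums 17.05 to 17.76 in HFD and 17.01 to 17.91 in ND. Fibroblast sums were 10.58 to 11.95 in HFD and 10.09 to 12.31 in ND, endothelial sums 9.79 to 10.51 in HFD and 8.68 to 10.62 in ND, and leukocyte sums 7.19 to 7.77 in HFD and 6.93 to 8.30 in ND. The part of these cell types in the squamous values was not tested.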

How the data were processed

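Per the labels' protocols, RNA of sorted cells was prepared with an AllPrep Micro kit, treated with DNase I, depleted of ribosomal RNA (RiboMinus) and made into Ion Total RNA-Seq libraries. The submitters' processing notes name mm10 and bedtools 2.17.0 without their roles; which aligner, annotation and normalization were used is not given in the sources used here. The authors deposited 1 table of log2 values per library, floored at 0, whose antilogs sum to 36.9 M in each library. Gene IDs were matched to RefSeq GRCm38.p6. Estimated reads are linear values divided by the worth of 1 read, found from the low values; 50.9% to 68.6% of low values were whole multiples within 0.01, so whole reads were not recovered, and no count model or counting interval is given.

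Linear values were rescaled by median ratios over 11115 rows above 30 in all 8 libraries, and log2(value + 1), which understates changes of low genes, was tested with limma 3.58.1 (R 4.3.3; trend and robust) in the 27401 rows with at least 1 in at least 4 libraries, adjusted by Benjamini-Hochberg at 0.05. Groups came from the titles. The members and lists were chosen with earlier results of these data known. Every member is named; levels in every library are given for the 3 highest members of each layer, for members called on either scale and for members at 0 in at least 4 libraries, and a few others where a library stood apart. From other squamous lists, called genes and otherwise the 2 highest are named, except 1 that is not reported here. Lengths per kb are exonic (GENCODE M21). Alternatives were the deposited scale, quantile normalization, another pseudocount, other filters, library weights and leaving out libraries.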

Additional observations from a re-analysis of the deposited data

Results flagged for a closer look

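Within a group of 4 libraries, 6 members had 1 library far from the other 3, in 68 groups examined. Chance flags about 1 in 20 groups of independent normal values, but these groups share libraries and some hold zeros, so that rate is only a rough guide. Krt6a was at 7.15 in HFD22, against 7.96 to 8.12 in the other HFD libraries. Krt6b was at 3.21 in ND16, against 7.36 to 7.45 in the other ND libraries. Sfn was at 10.30 in HFD23, against 9.56 to 9.64 in the other HFD libraries. Ppl was at 10.40 in ND15.17.18, against 9.46 to 9.51 in the other ND libraries. Sprr1b was at 2.11 in ND19 and Cnfn at 0.87 in ND16, each with the other ND libraries at 0, and each of these values is about 1 read. Where all other values are 0, any nonzero value is flagged.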

How the results depend on the processing

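Of 473 alternative values for single members, 445 kept direction and side of the threshold, 26 turned direction and 2 newly passed (Krt4 and Krt13 on the deposited scale). The basal and suprabasal medians stayed positive in every alternative, at 1.001 to 2.69 and 0.46 to 1.63. On the deposited scale 16 rows and 2 members were called, the cornified median was 1.01, and Dsc2 (0.44), Perp (0.79), Sfn (0.72), Sprr1a (0.67), Lor (0.47), Ppl (0.47) and Evpl (0.19) turned positive, where the typical row is itself 0.90 higher. Library weights gave 21 rows called and Sprr2a1, with it the cornified median, at -0.23; that median was also negative with the stricter filter, at -0.095. Without HFD23 and ND15.17.18, 0 rows were called, Sprr2a1 was -0.13 and Lor 0.036. Leaving out 1 library gave 0 to 4 rows called, against 3, and 0 members called. The same on the deposited scale, chosen after seeing the data, gave 1, 6, 33 and 1 rows without HFD22, HFD23, HFD26 and HFD27, and 0, 101, 3 and 9 without ND15.17.18, ND16, ND19 and ND20. Called members there were 2 without ND16, 3 without ND20 and 0 otherwise. Leave-one-out ranges that crossed 0 were -0.29 to 1.12 for Krt6b, -0.029 to 0.17 for Pkp1, -0.10 to 0.38 for Sbsn, -0.51 to 0.27 for Sprr1a, -0.060 to 0.46 for Sprr2a1, -0.998 to 0.27 for Lor, -0.25 to 1.48 for Ivl and -0.060 to 1.40 for Tgm3. For pairs they were -0.017 to 0.63 for Krt13 minus Krt5, -0.11 to 0.83 for Krt4 minus Krt5, -0.091 to 0.74 for Krt4 minus Krt13 and -0.23 to 0.065 for Krt14 minus Krt5. A pseudocount of 32 gave -0.063 for Krt4 minus Krt13; on the deposited scale, tried after seeing the data, all 6 pairs kept their sign. No paired analysis was possible because the groups share no replicate number. The causes of these changes were not tested, and levels near 1 read limit Dsg1a, Lor, Sprr3, Sprr1b and Cnfn.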
